A study of Mus musculus with 9 samples.

Results

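The genes described here are 10 markers of lipid-associated macrophages, namely Lpl, Trem2, Tyrobp, Gpnmb, Cd9, Cd63, Spp1, Fabp5, Fabp4 and Cd36, out of 23413 genes in the count table. They were chosen by name from the known lipid-associated program, and Lpl was added because it stood among the clearest genes higher with a high-fat diet in these same libraries. All 10 were measured and all 10 passed the filter on low counts, which kept 11393 genes for testing. Lipid-associated macrophages appear in fat tissue and fatty liver, where they take up lipoproteins and fatty acids, digest them in lysosomes and store or export the lipid. Lpl is a secreted lipase that frees fatty acids from triglyceride-rich lipoproteins. Trem2 is a surface receptor that binds lipids and signals through the adaptor Tyrobp (DAP12), and the remaining genes serve uptake (Cd36), fatty acid carriage (Fabp4 and Fabp5), lysosomes and membranes (Gpnmb, Cd9 and Cd63) or secretion (Spp1, osteopontin).

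Polyadenylated RNA was sequenced from macrophages sorted as Kupffer cells (KCs), the resident macrophages of liver, from male C57BL/6 mice that were 5 weeks of age at the start and were fed for 8 weeks. The 3 groups were NC (normal chow, 2 libraries), HFD + vehicle (high-fat diet with the carrier polyethylene glycol, 3 libraries) and HFD + DPI (high-fat diet with diphenyleneiodonium, 4 libraries). DPI is a small molecule used in this study as an agonist of the receptor GPR3, and it was injected into the peritoneum at 2 mg/kg every 5 days from week 3. The treatment field of the labels describes, instead, purified cells exposed to DMSO or 500 nM DPI for 24 h, so the route rests on the series design and the study's methods. The sort took F4/80+CD11b+ cells with low Gr1, a gate that also admits macrophages derived from monocytes. Titles give 1 mouse per library, whereas a figure legend of the study gives more mice per group than there are libraries. Whether cells of several mice were pooled is not stated.

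Totals ran from 3534325 to 15585775 counts per library (median 4918629), and 3 counts, the smallest signal treated here as detected, equalled 0.184 to 1.02 CPM, depending on the library. CPM, a gene's counts relative to the library total, are given after scaling by edgeR's trimmed mean of M-values. The ribosomal RNA precursor Rn45s took 27.0 to 44.5% of counts.

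The label was checked against markers of 14 cell types, and the defining genes of KCs were far below the general macrophage genes and uneven between libraries. The 8 general macrophage genes summed to 19558 to 25536 CPM in NC, 15506 to 26869 CPM in HFD + vehicle and 22137 to 44336 CPM in HFD + DPI, mostly from Lyz2, without which they summed to 1304 to 2276 CPM over all libraries. The 9 KC genes summed to 5.28 to 108 CPM in NC, 2.73 to 29.7 CPM in HFD + vehicle and 17.7 to 66.4 CPM in HFD + DPI. Clec4f, a lectin particular to KCs, had 0 and 45.6 CPM in NC, 9.32, 0 and 0 CPM in HFD + vehicle, and 13.4, 2.04, 0.742 and 0.612 CPM in HFD + DPI. Cd5l, a secreted scavenger protein of KCs, reached 21.1 CPM in NC library 2 and 36.8 CPM in DPI library 1, where the KC list was also highest (108 and 66.4 CPM). In the other libraries the list sum was graded, from 2.73 CPM in vehicle library 3 to 29.7 CPM in vehicle library 1. By contrast, the 8 monocyte genes summed to 4365 to 4504 CPM, 4309 to 5250.3 CPM and 3674 to 8276 CPM in the same order of groups. The cells are therefore called sorted liver macrophages below. In such bulk samples, fewer cells of a type and less RNA per cell cannot be told apart.

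Of the 14 marker lists, 6 had libraries that did not overlap between HFD + vehicle and NC, 3 higher and 3 lower (of single genes, 15.0% were higher and 12.5% lower without overlap). The endothelial list was lower with HFD + vehicle (21.6 to 62.2 CPM against 168 to 291 CPM in NC), as were the hepatocyte list (155 to 197 CPM against 316 to 513 CPM) and the cholangiocyte list (5.11 to 9.42 CPM against 9.47 to 45.9 CPM). The B cell list was higher with HFD + vehicle (93.4 to 179 CPM against 14.9 to 69.1 CPM), as was the sum of the dendritic cell list (193 to 310.1 CPM against 55.2 to 108 CPM). The latter rested on Ccr7, a chemokine receptor of migrating cells, and without it the sums overlapped (33.7 to 78.6 CPM against 55.2 to 61.3 CPM). The eosinophil sum (6.94 to 8.71 CPM against 5.6 to 6.56 CPM) differed by a few counts of Prg2, Siglec5 and Ccr3, whereas its main gene in these groups, Il5ra, overlapped. Leaving out the most abundant gene of each list was an alternative chosen after seeing the data. It left the endothelial, hepatocyte, cholangiocyte, B cell and eosinophil lists without overlap, the last at 6.89 to 7.32 CPM against 5.42 to 6.56 CPM in NC. Without Nkg7, the T and NK cell list was also higher without overlap (255 to 297 CPM in HFD + vehicle against 64.5 to 234 CPM in NC). Between HFD + DPI and HFD + vehicle, every list overlapped, although the eosinophil list reached 72.1 to 105 CPM in 3 of the 4 DPI libraries. Between HFD + DPI and NC, the dendritic cell list alone did not overlap with every gene counted (123 to 409 CPM against 55.2 to 108 CPM, or 64.2 to 135 CPM against 55.2 to 61.3 CPM without Ccr7). Without Trf, its most abundant gene, the hepatocyte list was also lower without overlap (30.6 to 86.6 CPM in HFD + DPI against 131 to 300.1 CPM in NC). Adipocytes also make Lpl, Fabp4 and Cd36, and the adipocyte markers Adipoq, Plin1, Cidec, Lep and Cfd had 0 counts in all 9 libraries. Stellate cell and fibroblast markers summed to at most 4.49 CPM, platelet markers to 6.92 to 36.2 CPM, T and NK cell markers to 89.2 to 473 CPM and neutrophil markers to 828 to 5457 CPM. Which part the endothelial, hepatocyte, dendritic cell, B cell, T and NK cell or other contents had in the members' levels, those of Fabp4 and Cd36 included, was not tested.

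**Figure D1:**
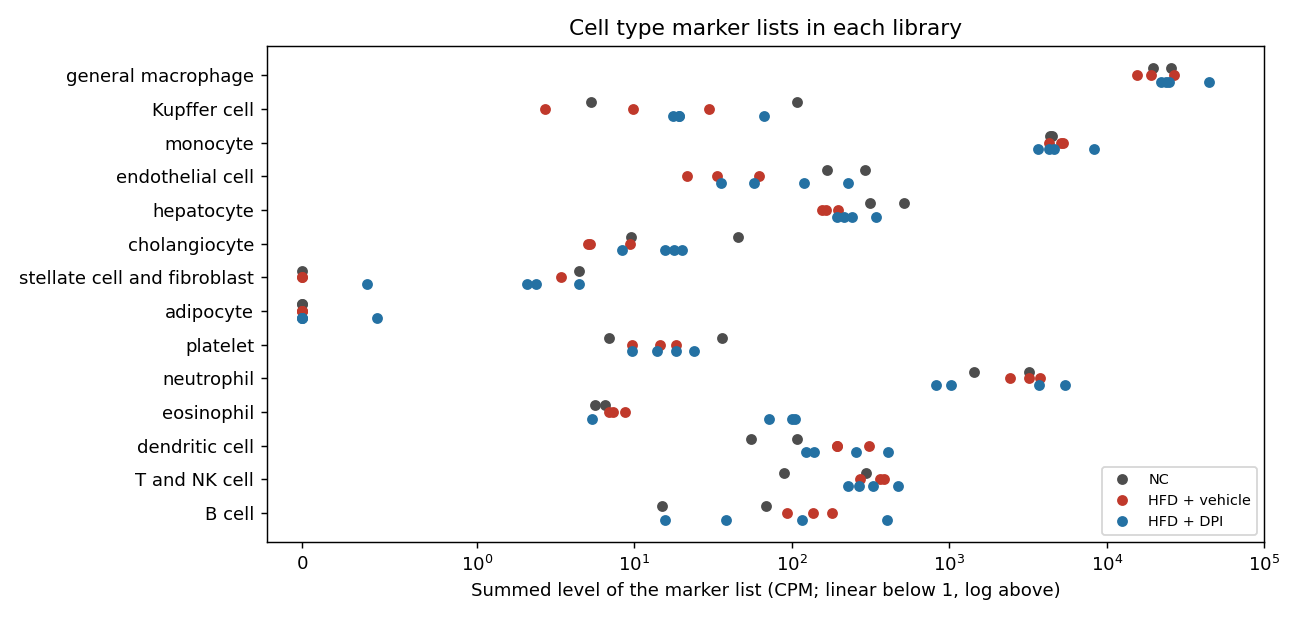
Summed CPM of each of the 14 marker lists (x axis, linear below 1 and logarithmic above) with 1 point per library, coloured by group. General macrophage and monocyte genes lie at or above 3674 CPM in every library, KC genes at or below 108 CPM, and the adipocyte list at 0 in 8 of 9 libraries.

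The design gives 3 comparisons. HFD + vehicle against NC asks what the diet changed, and because it is the comparison on which Lpl was picked, its values are given as a description without p-values, and counts of members past a threshold there restate that choice. HFD + DPI against HFD + vehicle asks what the compound changed in fat-fed mice, and HFD + DPI against NC asks how far treated cells stood from those of chow-fed mice. The last of these shares the NC libraries, and the former the vehicle libraries, with the comparison that picked Lpl. Fold changes are on the log2 scale with their standard error (SE), and adjusted p-values (Benjamini-Hochberg, over the 11393 genes) are those of edgeR's quasi-likelihood test.

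Lpl (lipoprotein lipase, GRCm38 chr8:68880491-68907448, plus strand, 10 exons) stood at 21.7 and 22.4 CPM in NC, at 121, 231 and 94.9 CPM in HFD + vehicle, and at 75.4, 81.2, 79.4 and 75.6 CPM in HFD + DPI. None of the 3 groups overlapped another: the NC libraries were lowest, the DPI libraries intermediate and the vehicle libraries highest. The 4 DPI libraries lay close together (77.9 ± 2.86 CPM, SD, n = 4), as did the NC libraries (22 ± 0.522 CPM, n = 2), whereas the vehicle libraries were spread widely (149 ± 72.2 CPM, n = 3). The log2 fold change of HFD + vehicle over NC was 2.76 (SE 0.42). HFD + DPI differed from HFD + vehicle by a log2 fold change of -0.94 (SE 0.31), which did not pass the test (adjusted p = 0.999 by edgeR's quasi-likelihood test), and without vehicle library 2, the highest, it was -0.47. HFD + DPI against NC gave 1.82 (SE 0.39, adjusted p = 0.109), which did not pass either. Of the 50-base stretches of the Lpl transcript, 4.11% also occur in transcripts of other genes.

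Trem2 (chr17:48346401-48354147, plus strand), the receptor that gives the program its usual name, went the other way from Lpl. It had 48.4 and 38.5 CPM in NC, 22.2, 32.1 and 28.2 CPM in HFD + vehicle, and 33.3, 36.0, 12.4 and 27.2 CPM in HFD + DPI. Every library from a fat-fed mouse was below both NC libraries, and the groups on HFD overlapped each other. The log2 fold change was -0.66 (SE 0.47) for HFD + vehicle over NC, -0.67 (SE 0.44, edgeR adjusted p = 0.598) for HFD + DPI over NC, and -0.02 (SE 0.40, edgeR adjusted p = 0.999) for HFD + DPI over HFD + vehicle. That last value turned positive when libraries were scaled by total counts alone (0.05).

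Tyrobp (chr7:30413760-30417585, plus strand) was by far the most abundant member. It had 1501 and 1674 CPM in NC, 1690.1, 2129.9 and 1917 CPM in HFD + vehicle, and 1962, 1583, 2034 and 1967 CPM in HFD + DPI. The NC libraries were just below the vehicle libraries, and the DPI libraries overlapped both. Its log2 fold changes were 0.27 (SE 0.23) for HFD + vehicle over NC, -0.02 (SE 0.19, edgeR adjusted p = 0.999) for DPI over vehicle and 0.25 (SE 0.22, edgeR adjusted p = 0.731) for DPI over NC. With scaling by total counts the first became -0.02 and the second 0.07. That scaling also moved the median of all genes, from 0.03 to -0.26 and from 0.04 to 0.12. Both signs of Tyrobp thus depend on the scaling. The receptor and its adaptor thus lay at very different levels, with Tyrobp at 3391 CPM per kilobase of transcript and Trem2 at 25.3 CPM per kilobase in HFD + vehicle.

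Cd36 (chr5:17781690-17888801, minus strand), a scavenger receptor that brings long-chain fatty acids and oxidised lipoproteins into the cell, had 27.0 and 28.6 CPM in NC. It had 111, 88.0 and 81.5 CPM in HFD + vehicle and 22.5, 37.7, 47.1 and 73.6 CPM in HFD + DPI. All vehicle libraries were above all NC and all DPI libraries, and the DPI libraries ran from below NC up to near the vehicle level. The difference of HFD + vehicle from NC was 1.75 (log2, SE 0.47). DPI against vehicle gave -1.04 (SE 0.36), which missed the adjusted threshold (edgeR adjusted p = 0.999), and DPI against NC gave 0.70 (SE 0.43, adjusted p = 0.574).

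The fatty acid carriers showed smaller differences with wide spread. Fabp5 (chr3:10012548-10016607, plus strand) had 21.1 and 45.6 CPM in NC, 45.5, 69.8 and 31.7 CPM in HFD + vehicle and 35.4, 15.3, 26.3 and 50.4 CPM in HFD + DPI. Fabp4 (chr3:10204088-10208576, minus strand) had 10 and 16.4 CPM in NC, 13.8, 16.0 and 11.4 CPM in HFD + vehicle and 8.89, 12.6, 12.1 and 6.73 CPM in HFD + DPI. For both carriers each group overlapped the others. The log2 fold change of HFD + vehicle over NC was 0.56 (SE 0.54) for Fabp5 and 0.05 (SE 0.58) for Fabp4. For Fabp5 it was 0.12 without NC library 1 and 1.25 without NC library 2, and for Fabp4 it turned negative under scaling by total counts (-0.22), without NC library 1 (-0.25) and without vehicle library 2 (-0.07). DPI against vehicle gave -0.61 (SE 0.44) for Fabp5 and -0.45 (SE 0.49) for Fabp4, each with an edgeR adjusted p = 0.999. DPI against NC gave -0.06 (SE 0.50, edgeR adjusted p = 0.979) and -0.40 (SE 0.55, adjusted p = 0.843), which were 0.63 and 0.03 without NC library 2. For Fabp5, 21.1% of 50-base stretches are shared with 5 other genes, so its counts are less certain.

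Spp1 (chr5:104435118-104441050, plus strand) encodes osteopontin, a secreted glycoprotein that bile duct cells also make. It had 2.91 and 8.22 CPM in NC, 37.5, 77.3 and 18.6 CPM in HFD + vehicle and 15.4, 21.1, 12.6 and 14.7 CPM in HFD + DPI. NC was below every library of fat-fed mice, while DPI library 2 exceeded the lowest vehicle library. The log2 fold change was 3.00 (SE 0.70) for HFD + vehicle over NC, 2.45 without NC library 1, 3.96 without NC library 2 and 2.33 without vehicle library 2. It was -1.49 (SE 0.51, edgeR adjusted p = 0.999) for DPI against vehicle, and -0.82 without vehicle library 2. DPI against NC gave 1.51 (SE 0.64, edgeR adjusted p = 0.438), 0.96 without NC library 1 and 2.47 without NC library 2. The cholangiocyte list summed to 5.11 to 9.42 CPM in HFD + vehicle and 9.47 to 45.9 CPM in NC, and its part in the level of Spp1 was not tested. The gene model Gm42793, which is not in the count table, overlaps Spp1 on the same strand, and 9.05% of the 50-base stretches of Spp1 occur in it.

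Gpnmb and the tetraspanins Cd63 and Cd9 separated the NC libraries from each other. Gpnmb (chr6:49036546-49070929, plus strand), a membrane glycoprotein of lysosomes and phagosomes, had 1.09 and 14.4 CPM in NC, 49.9, 32.1 and 31.0 CPM in HFD + vehicle and 24.2, 34.6, 20.2 and 3.78 CPM in HFD + DPI. Cd63 (chr10:128900989-128912822, plus strand), a tetraspanin of late endosomes and lysosomes, had 0.364 and 7.84 CPM in NC, 43.5, 34.3 and 17.8 CPM in HFD + vehicle and 16.1, 29.9, 10.6 and 20.5 CPM in HFD + DPI. In NC library 1 these were 6 counts of Gpnmb and 2 counts of Cd63, the latter under the detection floor. Cd9 (chr6:125460266-125494791, minus strand), a tetraspanin of the cell surface that platelets and B cells also carry, had 18.4 and 87.0 CPM in NC, 86.1, 142 and 95.7 CPM in HFD + vehicle and 21.3, 56.4, 87.4 and 91.1 CPM in HFD + DPI. For Gpnmb and Cd63 NC lay below all vehicle libraries, and for Cd63 below all DPI libraries too, whereas Cd9 overlapped throughout.

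The log2 fold changes of HFD + vehicle over NC were 2.28 (SE 0.96) for Gpnmb, 2.95 (SE 0.92) for Cd63 and 1.03 (SE 0.64) for Cd9. They rest on which NC library is used: without NC library 2 they were 5.11, 6.41 and 2.58, and without NC library 1 they were 1.40, 2.03 and 0.32. DPI against vehicle gave -0.87 (SE 0.72), -0.73 (SE 0.67) and -0.75 (SE 0.52) in the same order, with an edgeR adjusted p = 0.999 for each. DPI against NC gave 1.41 (SE 0.89, edgeR adjusted p = 0.586), 2.22 (SE 0.87, adjusted p = 0.41) and 0.28 (SE 0.60, adjusted p = 0.906). Without NC library 2 these values were 4.24, 5.67 and 1.82, and Gpnmb and Cd63 passed the adjusted threshold, as did 572 of 12334 genes (background 4.64%). Without NC library 1 they were 0.52, 1.29 and -0.44, and none of them passed. The pseudogene Cd63-ps shares 36.5% of the 50-base stretches of Cd63, and 15.5% of those of Cd9 are shared with Cd9-ps or the antisense gene Gm26728. None of these partners is in the count table, so no counts stood under their names, while shared reads of Cd63 and Cd9 may be lost.

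**Figure D2:**
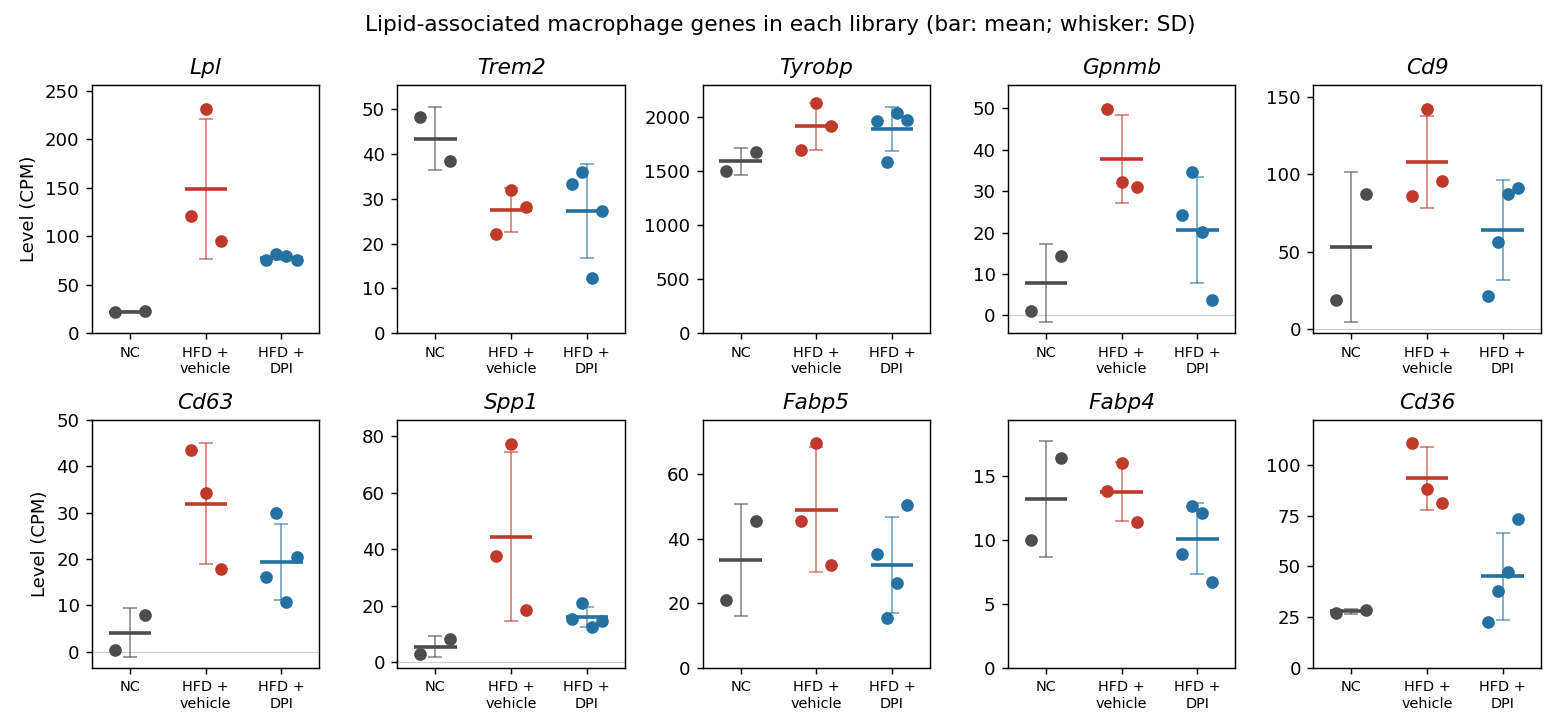
CPM of each of the 10 genes (y axis, linear, own scale per gene) in every library of NC (n = 2), HFD + vehicle (n = 3) and HFD + DPI (n = 4), with points for libraries, bars for means and whiskers for SD. Lpl shows 3 separate groups, Trem2 is highest in NC, and Gpnmb, Cd63 and Cd9 have NC libraries far apart.

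Upstream sequence is shown for 3 members whose levels ordered the groups differently: Spp1 and Cd36, which were lower in NC than in HFD + vehicle, and Trem2, which was highest in NC. Each line holds the 250 bases before an annotated start site (RefSeq, GRCm38.p6), 5′ to 3′ on the gene's strand, with matches to the searched motifs in capitals. The windows are chr5:104434861-104435110 (plus strand), chr5:17835897-17836146 (minus strand) and chr17:48346151-48346400 (plus strand).
Spp1: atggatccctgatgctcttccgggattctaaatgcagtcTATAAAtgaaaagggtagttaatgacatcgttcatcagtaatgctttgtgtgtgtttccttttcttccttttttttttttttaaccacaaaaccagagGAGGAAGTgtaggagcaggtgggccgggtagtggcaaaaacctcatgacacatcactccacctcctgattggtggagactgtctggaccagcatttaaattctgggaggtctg
Cd36: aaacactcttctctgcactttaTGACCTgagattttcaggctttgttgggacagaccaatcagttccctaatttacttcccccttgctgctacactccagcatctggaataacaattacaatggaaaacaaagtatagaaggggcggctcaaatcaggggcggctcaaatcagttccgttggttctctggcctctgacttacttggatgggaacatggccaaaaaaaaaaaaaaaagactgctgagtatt
Trem2: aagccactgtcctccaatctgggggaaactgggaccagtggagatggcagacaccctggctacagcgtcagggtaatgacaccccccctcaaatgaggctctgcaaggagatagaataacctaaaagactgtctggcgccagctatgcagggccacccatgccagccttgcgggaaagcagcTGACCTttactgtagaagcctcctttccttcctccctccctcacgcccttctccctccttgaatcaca
The 5 motifs searched on both strands were the E-box of MiT/TFE factors (CACGTG or CATGTG), the PU.1 core GAGGAAGT, the nuclear receptor element AGGTCA, the AP-1 site (TGACTCA or TGAGTCA) and the TATA box TATAAA. Spp1 held TATAAA 211 bases and GAGGAAGT 113 bases before its start, and these letters occur in 12.4% and 2.44% of all 32851 windows of this length. Cd36 held TGACCT, the reverse complement of AGGTCA, 228 bases before its start, and Trem2 held it 68 bases before, against 14.0% of all windows. The E-box stood in 17.6% and the AP-1 site in 4.46% of all windows. For 6 members 7 windows were matched. A further start site of Spp1 (window chr5:104435942-104436191, plus strand) had none of the 5 motifs before it. Those of Gpnmb and Cd63 held none of the 5 motifs, and that of Cd9 held CACATG, the reverse complement of CATGTG. A match describes the letters and not a bound site.

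Taking the 10 genes as a list, 9 had a log2 fold change above 0 for HFD + vehicle over NC (background 51.5%), and Trem2 alone was below 0, although Tyrobp and Fabp4 turned negative under scaling by total counts. The median was 1.39, beside 0.03 over all tested genes. Past the adjusted threshold in edgeR was 1 member, Lpl, the gene picked on this comparison (background 0.0614%, 7 genes). It was lost, leaving 0, with scaling by library size, with the replicate block, with a fit of the 2 groups only, and without NC library 1, vehicle libraries 1 or 2 or any DPI library, while DESeq2 had 4 members past its threshold (background 2.75%). The study's own threshold (p under 0.05 before adjustment and at least 1 log2 unit of change) took in 5 members as higher (Lpl, Gpnmb, Cd63, Spp1 and Cd36, background 7.03%) and 0 as lower (background 4.63%). Libraries of the groups did not overlap for 6 members that were higher with HFD + vehicle (background 15.0%) and for 1 that was lower (12.5%). Since this comparison chose Lpl, nothing is read from these counts.

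DPI against vehicle gave a log2 fold change below 0 for all 10 members (background 46.9%), from -1.49 for Spp1 to -0.02 for Trem2 and Tyrobp, of which Trem2 and Tyrobp turned positive under scaling by total counts. The members' median was -0.74, beside 0.04 over all genes. Of the 10 members, 0 passed the adjusted threshold in edgeR, as did 0.0% of all genes (4.13% of which had an unadjusted p under 0.05, with 2 genes or 0.0176% called by DESeq2). Among the members, 3 had an unadjusted p under 0.05 (Lpl, Spp1 and Cd36), and DESeq2 called 0. At the study's threshold 2 were lower (Spp1 and Cd36, background 1.34%) and 0 higher (background 1.5%). Lpl and Cd36 were the 2 members whose DPI libraries all lay below the vehicle libraries (background 2.48%), and 0 lay entirely above them (background 3.38%). Vehicle library 2 was the highest vehicle library for 7 of the 10 members (Lpl, Trem2, Tyrobp, Cd9, Spp1, Fabp5 and Fabp4). Without it the members' median was -0.49, and Trem2 and Tyrobp were at 0.11 and 0.06. Trem2 was also positive with thinned counts (0.13) and without DPI library 3 (0.22), and Tyrobp without DPI library 2 (0.05).

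DPI against NC placed 7 members above 0 (background 52.1%) and 3 below, with a median of 0.49 beside 0.04 over all genes. Without NC library 2 the median was 1.3 and Fabp5 and Fabp4 were above 0, without NC library 1 Cd9 was below 0, and without DPI library 2 or 3, or with thinned counts, Fabp5 was above 0. By edgeR's adjusted p, 0 members passed (background 0.00878%, 1 gene), 3 had an unadjusted p under 0.05 (background 10.7%), and DESeq2 called 1, Lpl (background 1.97%). Those 3, Lpl, Cd63 and Spp1, were also higher at the study's threshold (background 6.24%), where 0 were lower (background 3.05%). The count at this threshold was 1 (Lpl) without DPI library 2 (651 of 11335 genes were higher) or with a fit of the 2 groups only (582 of 11017). It was 2 with library size scaling (546 of 11393) and with the filter of at least 10 counts (245 of 6760). The count also depended on which NC library was kept. Lpl, Cd63 and Spp1 had every DPI library above both NC libraries (background 11.7%), and Trem2 had every DPI library below them (background 8.5%).

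**Figure D3:**
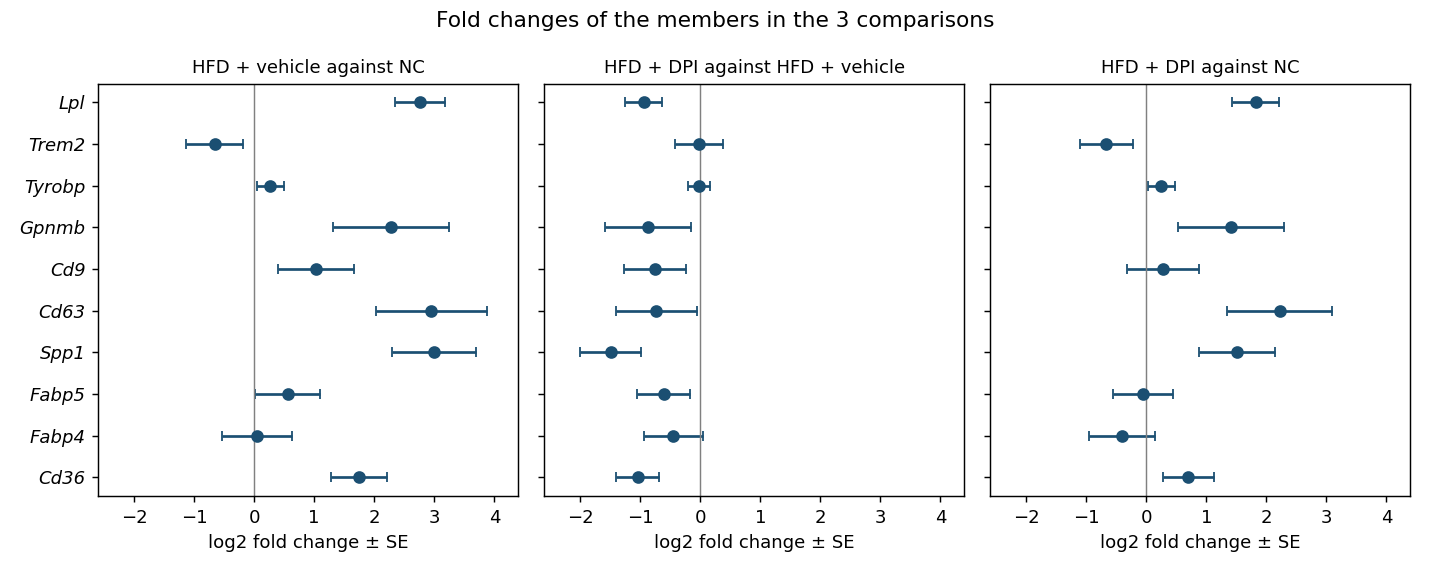
Log2 fold change with its SE (x axis) of each gene in the 3 comparisons. For HFD + vehicle against NC, Spp1 lies at 3.00, Cd63 at 2.95, Lpl at 2.76 and Trem2 at -0.66; for HFD + DPI against HFD + vehicle all 10 points lie at or below -0.02 (Trem2 and Tyrobp turn positive under scaling by total counts); for HFD + DPI against NC, Cd63 and Lpl are highest.

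Per kilobase of transcript, the members fell into a different order in each group. In NC, Tyrobp (2815 CPM per kilobase) was followed by Cd9 (42.9), Trem2 (39.9), Fabp5 (33.8), Fabp4 (14.8), Cd36 (8.17), Lpl (5.36), Cd63 (3.70), Spp1 (3.69) and Gpnmb (2.09). In HFD + vehicle, Lpl took the fourth place at 36.2 CPM per kilobase, after Tyrobp, Cd9 (87.8) and Fabp5 (49.7), and Trem2 had moved to the eighth place. In HFD + DPI, Trem2 (25.0) and Lpl (18.9) were neighbours behind Tyrobp, Cd9 (52.2) and Fabp5 (32.3). Most neighbours overlapped between libraries. Those that did not were Tyrobp and Cd9 in every group, the neighbours from Fabp5 to Lpl in NC, and Trem2 and Fabp4 in HFD + vehicle.

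**Figure D4:**
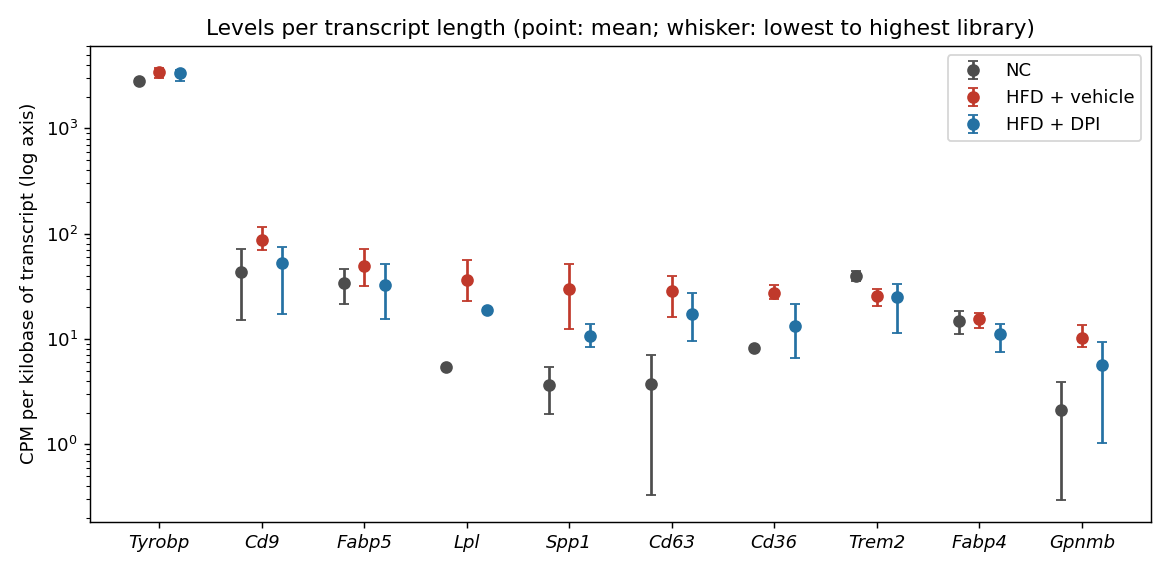
CPM per kilobase of the longest coding transcript (y axis, log) with the mean as a point and the lowest and highest library as whiskers, by group, genes ordered by their level in HFD + vehicle. Tyrobp lies highest in all groups (2815 in NC), while Lpl moves from 5.36 in NC to 36.2 in HFD + vehicle and 18.9 in HFD + DPI.

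Across the 9 libraries, the genes whose log2 CPM was most like that of Lpl were Id1, Rabif, Ephx1, Spp1 and Rrad, with Pearson's r of 0.95, 0.95, 0.94, 0.93 and 0.93 and Spearman's rho of 0.83, 0.82, 0.86, 0.92 and 0.64. Spp1 was therefore the fourth of all tested genes. Ephx1 and Rrad had 0 CPM in both NC libraries, and 2.02 to 11.8 CPM and 6.44 to 27.7 CPM in those of fat-fed mice. The other members ranged from r = 0.81 for Cd63 and 0.72 for Cd36, through 0.67 for Gpnmb, 0.66 for Tyrobp, 0.54 for Cd9, 0.39 for Fabp5 and 0.12 for Fabp4, to -0.44 for Trem2. The libraries share groups, so these values describe the group pattern as much as any link between genes. Within the 7 libraries from fat-fed mice, which are also those left when the 2 libraries farthest in Lpl are removed, r with Lpl was 0.96 for Spp1, 0.81 for Id1, 0.74 for Rabif, 0.68 for Ephx1 and 0.63 for Rrad. For the other members this r was 0.71 for Fabp4, 0.64 for Fabp5, 0.61 for Cd63 and 0.59 for Cd9. It was 0.58 for Cd36, 0.41 for Gpnmb, 0.29 for Tyrobp and 0.18 for Trem2, whose sign thus turned. Ranked over all tested genes in those 7 libraries, the 5 most alike were Spp1, Lpxn, Ercc6l2, Stk38l and Gpn3, so Spp1 is the gene that both rankings share.

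Further genes of the program were read from 5 lists of 86 genes, 78 of which were tested. By edgeR's adjusted p, 0 of 78 passed in each of the 3 comparisons. At an unadjusted p under 0.05 there were 15 for HFD + vehicle against NC (background 13%), 5 for DPI against vehicle (background 4.13%) and 11 for DPI against NC (background 10.7%). DESeq2 called 4, 0 and 1 of them, with 2.75%, 0.0176% and 1.97% of all genes called. For each list below, the shares of all genes at the study's threshold stand beside the counts.

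Of 26 tested lipid-associated macrophage genes outside the 10, 3 were higher with HFD + vehicle at the study's threshold (background 7.03%) and 0 lower (background 4.63%), with a median of 0.17. Cstb, an inhibitor of cathepsins, had 74.7 ± 12.9 CPM in NC (n = 2), 186 ± 11.3 CPM in HFD + vehicle (n = 3) and 94.5 ± 12.1 CPM in HFD + DPI (n = 4). DPI against vehicle gave -0.98 (SE 0.24) for Cstb, with an edgeR adjusted p = 0.999. Plin2, which coats lipid droplets, had 198 ± 6.65, 473 ± 196 and 338 ± 89.6 CPM in the same order. Psap, the precursor of lysosomal lipid-activator proteins, had means of 1524, 3097 and 1931 CPM. It is outside the naming rule and was named after its value was seen. Under DPI against vehicle, 1 gene was higher at the study's threshold (background 1.5%), Hexa, a lysosomal hexosaminidase subunit, with 102 ± 25.3 CPM in vehicle and 209 ± 122 CPM in DPI (log2 1.04, SE 0.41, edgeR adjusted p = 0.999). Apoe, the most abundant gene of the list, had means of 3853, 3402 and 5213 CPM (DPI against vehicle 0.62, SE 0.34, edgeR adjusted p = 0.999).

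Of 16 tested partners of Trem2 and Tyrobp, 2 were higher at the study's threshold with HFD + vehicle over NC (background 7.03%) and 0 lower (4.63%), while 0 passed it for DPI against vehicle (1.5% higher and 1.34% lower in the background; median -0.24). Pik3r1, a regulatory subunit of phosphoinositide 3-kinase, had 3.97 ± 0.723 CPM in NC, 40.0 ± 11.7 CPM in HFD + vehicle and 24.9 ± 11.3 CPM in HFD + DPI. DPI over NC gave 2.64 (SE 0.62, edgeR adjusted p = 0.143) for this gene. Adam17, a protease that sheds Trem2 from the surface, had 24.3 ± 10.7, 54.0 ± 6.74 and 32.7 ± 5.23 CPM. For DPI against NC, 1 gene was higher (Pik3r1, background 6.24%) and 1 lower (background 3.05%; Plcg2, a phospholipase downstream of Trem2, -1.13, SE 0.37, edgeR adjusted p = 0.35). Syk, the kinase that Tyrobp recruits, had means of 174, 176 and 164 CPM.

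Of 12 partners and inhibitors of lipoprotein lipase, 9 were tested, with a median log2 fold change of -1.10 for HFD + vehicle over NC, beside 0.03 over all genes. With genes at the floor in 1 group set at their bound, the median was -0.66. At the study's threshold 2 were lower (background 4.63%) and 1 higher (background 7.03%). Apoc2, the cofactor that activates the lipase, had 169 ± 42.3 CPM in NC, 78.8 ± 27.8 CPM in HFD + vehicle and 103 ± 35.3 CPM in HFD + DPI. Apoa5, an apolipoprotein made by hepatocytes, had 4.48 and 12.4 CPM in NC (mean 8.43 CPM) and at most 2 counts in any library of fat-fed mice. Its NC mean was therefore at least 13-fold higher than in HFD + vehicle, against a floor of 3 counts per library, and this bound leans on the higher NC library. Angptl4, a secreted inhibitor of the lipase, had 0 counts in NC and means of 1.47 CPM in HFD + vehicle (0 to 2.23 CPM) and 2.83 CPM in HFD + DPI (0.408 to 6.25 CPM). With NC at its floor of 0.553 CPM, these means were at least 2.65-fold and at least 5.12-fold higher, although the lowest library of each group lay under that floor. Gpihbp1, the endothelial anchor of the lipase, had means of 14.6, 1.09 and 5.71 CPM. The hepatocyte and endothelial marker lists were also lowest in HFD + vehicle, and their part in Apoa5 and Gpihbp1 was not tested. In DPI against vehicle 0 of the 9 passed the study's threshold (background 1.5% higher and 1.34% lower; median 0.38, or 0.37 with 1 gene at its bound).

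Of 12 tested genes for uptake of fatty acids and lipoproteins other than Cd36 and the carriers, 2 were higher and 0 lower at the study's threshold with HFD + vehicle over NC (background 7.03% and 4.63%; median 0.38, also with genes at the floor set at their bound). Olr1, a receptor for oxidised low-density lipoprotein, had means of 1.1, 11.7 and 6.38 CPM in NC, HFD + vehicle and HFD + DPI, with a log2 fold change of 2.52 (SE 1.04, edgeR adjusted p = 0.427) for DPI over NC. Acsl3, which activates fatty acids, had 0 counts in NC and means of 1.14 CPM in HFD + vehicle (0.496 to 1.81 CPM) and 2.38 CPM in HFD + DPI (0.34 to 6.22 CPM). Against the NC floor of 0.553 CPM these means were at least 2.06-fold and at least 4.31-fold higher, but the lowest library of each group lay under that floor. For DPI against vehicle 0 of 12 passed (background 1.5% higher and 1.34% lower; median -0.04).

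Of 15 tested lipid-sensing and MiT/TFE regulators, 1 was higher and 1 lower with HFD + vehicle at the study's threshold (background 7.03% and 4.63%). Mitf, a transcription factor of lysosomal genes such as Gpnmb, had 5.79 ± 1.85 CPM in NC, 19.2 ± 4.91 CPM in HFD + vehicle and 9.43 ± 5.35 CPM in HFD + DPI (DPI against vehicle -1.03, SE 0.61, edgeR adjusted p = 0.999). Rxra, the common partner of lipid-sensing nuclear receptors, had 30.2 ± 23.7, 8.53 ± 2.68 and 8.24 ± 5.59 CPM, the NC libraries lying at 13.4 and 47.0 CPM. Pparg, a nuclear receptor whose known targets include Fabp4 and Cd36, had means of 3.40, 6.99 and 7.29 CPM, with a DPI against vehicle value of 0.04 (SE 0.73, edgeR adjusted p = 0.999).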

How the data were processed

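RNA-seq of sorted liver macrophages from 2 NC, 3 HFD + vehicle and 4 HFD + DPI mice was used. The authors deposited whole-number counts per gene, made against mm10. Study methods name bowtie2 and RSEM, whereas the submitters' processing notes name TopHat2 and edgeR. Annotation and strand setting are not given in the sources used here. Groups came from sample titles, and p-values assume that libraries are separate mice.

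Counts were tested with edgeR 4.0.16 (R 4.3.3) after filterByExpr, with TMM scaling, 1 quasi-likelihood fit of the 3 groups and Benjamini-Hochberg adjustment. SE is the absolute log2 fold change over the square root of F. Scripts were tested on simulated data. Alternatives were DESeq2 1.42.0, other scalings and filters, thinning, a replicate block, 2-group fits and leaving out each library. Lists and members were chosen with earlier results of these data known. The text names all members, the 5 genes most like Lpl in log2 CPM (prior count 2), and, from each list, the 2 genes with the smallest p at the study's threshold in HFD + vehicle against NC and in DPI against vehicle; Psap, Apoe, Plcg2, Syk, Angptl4, Gpihbp1 and Pparg were added after their values were seen. Of 113 marker genes, 111 were in the table. Positions and lengths are from GENCODE M21 (GRCm38).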

Additional observations from a re-analysis of the deposited data

Results flagged for a closer look

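Tyrobp in DPI library 2 stood apart from its group at 1583 CPM, while the other 3 DPI libraries lay between 1962 and 2034 CPM. The gap to the nearest of them was 0.839 of the whole range, above Dixon's critical value for 4 samples. Dixon's test was run on 10 groups, and chance flags about 1 in 20. That library was also the shallowest, at 3534325 counts. Without it, the log2 fold change of Tyrobp for DPI against vehicle was 0.05 in place of -0.02.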

How the results depend on the processing

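For HFD + vehicle against NC, the 1 member called (Lpl) became 0 with scaling by library size, with the replicate block and with a fit of the 2 groups only, 4 with DESeq2, and 0 to 4 when each library was left out (0 without NC library 1, vehicle libraries 1 or 2, or any DPI library; 4 without NC library 2). Members at the study's threshold were 3 and their median 0.8 when at least 10 counts were required in every library, which left fewer members to test; with libraries left out, the median ran from 0.86 (without NC library 1) to 2.2 (without NC library 2). List genes called numbered 1 without a filter, 4 with DESeq2 and 0 to 1 with libraries left out. For DPI against vehicle, 1 member in place of 2 was at the study's threshold with library size scaling, and 1 to 3 with libraries left out, the lower value without vehicle library 2, DPI library 1 or DPI library 2. Trem2 reversed to 0.05 with library size scaling and 0.13 with thinned counts (-0.18 to 0.22 with libraries left out), and Tyrobp to 0.07 with library size scaling (-0.11 to 0.06). For DPI against NC, Fabp5 was 0.04 with thinned counts and -0.50 to 0.63 with libraries left out, Cd9 -0.44 to 1.82 and Fabp4 -0.71 to 0.03. Members at the study's threshold were 1 with the 2-group fit and 1 to 5 with libraries left out (1 without NC library 1 or DPI library 2, 5 without NC library 2). Members called were 1 with DESeq2 and 0 to 2, list genes 1 with DESeq2 and 0 to 1, and the median 0.29 to 1.3. For DPI against NC, 711 of 11393 genes were higher at the study's threshold in the main fit. There were 582 of 11017 with the 2-group fit and 651 of 11335 without DPI library 2. Without NC library 2 the share of such genes was larger too, so the 5 members there are not read as a stronger result. A group left with 1 library is assumed to vary like the others. The cause was not tested. Same-numbered libraries did not deviate together (r at most 0.0841), so the replicate block pairs nothing known. Scaling by library size moved the median of all genes from 0.03 to -0.26 for HFD + vehicle against NC, from 0.04 to 0.12 for DPI against vehicle and from 0.04 to -0.17 for DPI against NC. Adjusted calls over all genes for HFD + vehicle against NC were 7, but 568 without NC library 2, 52 without a filter, 312 with DESeq2 and 0 with the replicate block. The biological coefficient of variation was 0.65, estimated from 2 NC, 3 vehicle and 4 DPI libraries.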
